A study of Rattus norvegicus with 6 samples.

Results

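The class II genes of the rat major histocompatibility complex and the invariant chain gene Cd74 were examined in whole adrenal glands of 2 inbred rat strains, the spontaneously hypertensive rat (SHR) and the Wistar-Kyoto rat (WKY). The members were Cd74, RT1-Ba, RT1-Bb, RT1-Da, RT1-Db1, RT1-DMa and RT1-DMb. They are 7 of the 4736 genes that a probe set names alone. Every probe set whose annotation named any of them was taken, which gave 21 of 8740 probe sets once controls were left out. None of the 21 named a further gene. RT1-Bb had 5 probe sets, Cd74 4, RT1-Ba and RT1-DMb 3 each, and RT1-Da, RT1-Db1 and RT1-DMa 2 each.

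Total RNA of each strain had been hybridized to 3 Affymetrix RG-U34A arrays, which read each transcript with sets of short oligonucleotides. Both strains were untreated as far as the labels go, which give no age, sex or diet and do not say if the arrays of a strain stand for different rats. What the p-values below weigh is therefore array-to-array spread within a strain, and this spread may be purely technical. SHR develops high blood pressure as it ages, and WKY is the normotensive strain usually set beside it.

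Class II molecules are pairs of an alpha and a beta chain that hold peptides from endocytosed protein at the surface of macrophages, dendritic cells and B cells, where helper T cells read them. RT1-B and RT1-D are the classical rat class II molecules. The invariant chain encoded by Cd74 escorts the new pair to the endosome and fills its peptide groove, cathepsins trim it there, and RT1-DM helps the last fragment leave. The RT1-B and RT1-D chains differ in sequence between inbred strains, so that a short probe made from one strain's sequence can read another strain's transcript less well. Probe sets of the same gene were therefore compared with each other throughout.

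All arrays had the same trimmed mean intensity of 2504 as deposited, and their medians ran from 798.3 to 899.5. The ratio of 3' to 5' signal of the hexokinase control, which rises as RNA degrades, was 4.21 in SHR replicate 2 and 1.96 to 2.54 elsewhere. The same ratio of the GAPDH control was 0.95 in SHR replicate 2, within the 0.90 to 1.14 of the other arrays. Hybridization times of day in the settings files fell into 2 groups over 60 minutes apart, taken here as 2 hybridization runs. The date was not used in setting them. All 3 WKY arrays shared the first with SHR replicate 1, and SHR replicates 2 and 3 made up the second. Markers of both adrenal compartments were present, since all 8 measured cortex markers and all 9 measured medulla markers lay above the filter on dim probe sets. Of the 5244 probe sets tested with limma, 1.95% were called at an adjusted p under 0.05, 0.877% lower in SHR and 1.07% higher.

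Probe sets of Cd74 and of several class II chains read lower on the SHR arrays than on the WKY arrays. Of the 21 member probe sets, 14 were bright enough to be tested, 6 were called lower in SHR and 0 higher, and 8 did not pass. The 6 belonged to Cd74 (3 probe sets), RT1-Ba, RT1-Bb and RT1-Db1, so 4 of the 7 genes had a called probe set. Of the 14, 13 had a negative difference, as did 50.9% of all tested probe sets. The 3 SHR arrays lay wholly below the 3 WKY arrays in 9 of the 14, against 10.5% of tested probe sets. Over all 21, the dim ones included, SHR lay wholly below WKY in 12 and wholly above in 2, against 8.9% and 8.24% of all probe sets. The median log2 difference was -1.12 over the 14 and -0.007 over all tested probe sets. Whole gland RNA cannot tell fewer class II positive cells from less class II RNA per cell. Strain and hybridization run cannot be told apart for SHR replicates 2 and 3, since their run held no WKY array. Whether strain differences in sequence under the probes took part was not tested.

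**Figure D1:**
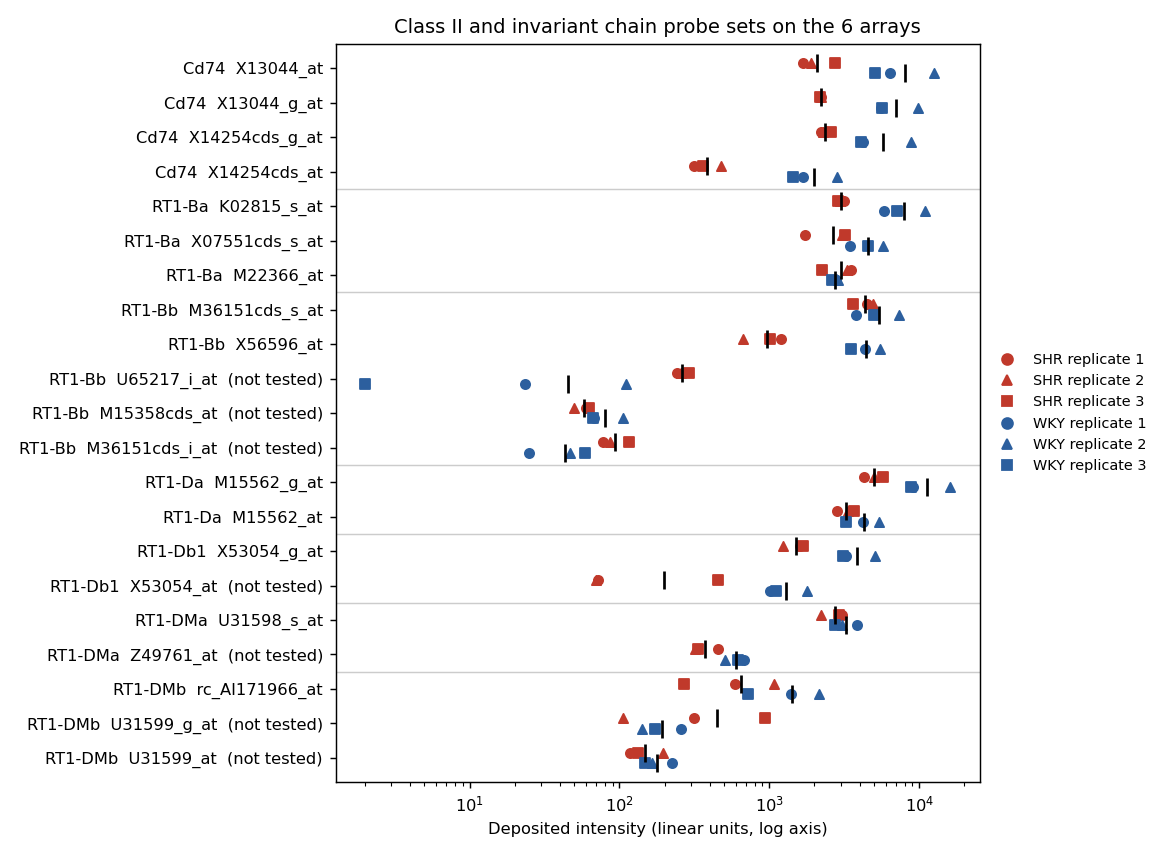
Deposited intensity (log axis) of all 21 member probe sets on the 6 arrays, in red for SHR and blue for WKY, with a marker shape per replicate and a black bar at each strain's mean (n = 3). In the 4 Cd74 probe sets the strains do not overlap, RT1-Ba and RT1-Bb each hold probe sets that separate the strains and probe sets that do not, and WKY replicate 2 (blue triangles) is the highest WKY array in 16 of the 21, as in 32.9% of all probe sets.

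Cd74, the invariant chain, separated the strains in every probe set. The brightest (X13044_at) read 1668.5, 1895 and 2725.3 on SHR replicates 1 to 3 and 6371.2, 12604.3 and 5044.4 on WKY replicates 1 to 3. The strains did not overlap, and the WKY values were widely spread, with WKY replicate 2 far above the other two. The means were 2096 ± 556 in SHR and 8007 ± 4037 in WKY (intensity ± SD, n = 3 each). On the log2(intensity + 181.5) scale, which understates the change of dim probe sets and is used for all differences below, SHR was lower by a 3.40-fold ratio, a difference of -1.76 ± 0.33 (SE; limma adjusted p = 0.0429).

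The second probe set from the same transcript sequence (X13044_g_at) gave tighter values. It read 2197.8, 2223.3 and 2191 in SHR and 5598.4, 9852.4 and 5622.6 in WKY, with a difference of -1.54 ± 0.23 (adjusted p = 0.0168). X14254cds_at read 312.7, 473.4 and 360.7 in SHR and 1672.2, 2850.2 and 1438.8 in WKY, a difference of -1.90 ± 0.28 (0.0178). Its companion X14254cds_g_at read 2211.3 to 2568.7 in SHR and 4069.3 to 8825.1 in WKY, and did not pass at -1.13 ± 0.29 (0.109). The 4 Cd74 readings thus had the same sign and order of strains. In a limma fit of the per-array difference between 2 probe sets of a gene, none of the 6 Cd74 pairs passed. Over the whole array 1615 such pairs were tested and 0.867% were called. Among the Cd74 pairs, 2 had an unadjusted p under 0.05, X14254cds_g_at against X14254cds_at and against X13044_at, with adjusted p of 0.378 and 0.381.

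The classical genes share a promoter layout, shown here because their readings are compared next. Class II promoters carry an X box, bound by RFX proteins, and downstream of it a Y box, bound by NF-Y, and the coactivator CIITA acts through both. RefSeq promoter windows (GRCr8 assembly, from the BN rat and not from SHR or WKY) were at hand for 6 of the 7 members, each from 250 bases before to 50 after the start. In the windows below the capitals mark the core of the X box, searched as GNNACNG, and of the Y box, searched as GATTGG. Each runs 5' to 3' along the gene's strand.
RT1-Da: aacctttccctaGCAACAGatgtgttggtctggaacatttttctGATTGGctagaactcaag
RT1-Db1: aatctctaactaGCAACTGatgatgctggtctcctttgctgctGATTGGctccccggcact
RT1-Ba: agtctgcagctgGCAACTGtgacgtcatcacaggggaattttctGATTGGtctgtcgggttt
RT1-Bb: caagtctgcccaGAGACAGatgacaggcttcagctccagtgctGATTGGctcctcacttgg
RT1-DMa: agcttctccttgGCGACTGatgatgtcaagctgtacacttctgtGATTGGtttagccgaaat

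The windows lie at chr20:4515321-4515382 (RT1-Da, plus strand), chr20:4560226-4560286 (RT1-Db1, minus), chr20:4576969-4577030 (RT1-Ba, plus), chr20:4604163-4604223 (RT1-Bb, minus) and chr20:4712383-4712444 (RT1-DMa, minus). In all 5 the start of GATTGG lay 31 or 32 bases after the start of GNNACNG, and 44 to 81 bases before the gene start. GATTGG on either strand occurred in 5 of the 6 member windows and in 15.3% of 27457 promoters of the same length. GNNACNG alone is common, at 88.2% of promoters. GNNACNG followed by GATTGG 20 to 40 bases on, on the same strand, occurred in these 5 and in 1.42% of all promoters. That spaced form was set after these sequences had been seen. The Cd74 window held GNNACNG and no GATTGG. The core of the X2 part of the X box, TGACG, occurred in RT1-Ba alone among the 6 and in 22% of all promoters, and within 40 bases of a GATTGG in 1.68%. The marked motifs do not overlap each other in the printed windows. The 5 genes with this layout include genes with a called probe set and genes without one, among them RT1-Da and RT1-DMa.

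RT1-Ba, the alpha chain of RT1-B, gave readings that depended on the probe set. K02815_s_at read 3133.8, 2960.4 and 2886.7 in SHR and 5844.2, 10904.7 and 7058.3 in WKY, with no overlap, and was lower in SHR by -1.31 ± 0.22 (limma adjusted p = 0.0297). X07551cds_s_at read 1737, 3062.6 and 3178.6 in SHR and 3428.2, 5698.1 and 4584.9 in WKY, also with no overlap, and did not pass at -0.76 ± 0.27 (0.258). M22366_at read 3488.2, 3287.8 and 2262.6 in SHR and 2797, 2876.4 and 2607.9 in WKY. Its strains overlapped, and it stood at 0.10 ± 0.19 (0.866). The difference between K02815_s_at and M22366_at was -1.40 ± 0.27 and did not pass after adjustment over all pairs (unadjusted p = 0.000675, adjusted p = 0.0727). It passed in 1 of 18 alternative fits, with the filter at the 60th percentile (adjusted p = 0.0458).

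RT1-Bb, the beta chain of RT1-B, held the largest change among the tested members. X56596_at read 1205.7, 671.5 and 1011 in SHR and 4373.6, 5441.6 and 3533.2 in WKY, a 4.07-fold ratio and a difference of -2.03 ± 0.24 (limma adjusted p = 0.00548). The lowest WKY array was well above the highest SHR array. On a log2(intensity + 1) scale Cd74 X14254cds_at had a larger difference, at -2.33 against -2.23 for X56596_at. The brightest RT1-Bb probe set, M36151cds_s_at, read 4481.5, 4931.2 and 3603.6 in SHR and 3789.1, 7325.9 and 4989 in WKY. These overlapped, at -0.26 ± 0.24 (0.697).

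The RT1-Bb pair differed by 1.77 ± 0.31 (limma adjusted p = 0.0466 over all pairs), the 1 member pair of 11 to pass. That call was lost in 14 of 18 alternative fits, among them each of the 6 without 1 array (adjusted p from 0.109 to 0.164) and the run as a block (0.529). The difference lay between 1.48 and 1.93 in the 6. The other 3 RT1-Bb probe sets were too dim to test. U65217_i_at read 242.8, 256.1 and 291.1 in SHR and 23.3, 110.5 and 2 in WKY, the reverse order of the strains. With no filter its difference was 1.00 (limma adjusted p = 0.0882, all probe sets tested). M36151cds_i_at also had SHR above WKY, at 77.1 to 115.2 against 24.9 to 58.7. M15358cds_at was at 50 to 63.1 against 67.1 to 105.7. All these values lie below the intensity of 529.7 at which the filter was set. Whether strain differences in sequence under the probes took part in these readings was not tested, since no probe sequence was used here.

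RT1-Db1 and RT1-Da, the beta and alpha chains of RT1-D, ran the same way. X53054_g_at of RT1-Db1 read 1598.8, 1239.6 and 1680.2 in SHR and 3262.2, 5106.4 and 3102.9 in WKY, a called difference of -1.22 ± 0.23 (limma adjusted p = 0.0403). X53054_at of the same gene read 72, 70.2 and 454.2 in SHR and 1004.8, 1786.8 and 1106.3 in WKY. It had no overlap between strains, and fell just under the filter with a mean log2 value of 9.46 against the limit of 9.47. With no filter its difference was -2.07 (adjusted p = 0.0898, all probe sets tested). M15562_g_at of RT1-Da read 4307.9, 4974.1 and 5712.3 in SHR and 9032.2, 16145.2 and 8841.7 in WKY. The strains did not overlap, yet the difference of -1.10 ± 0.24 did not pass (0.0744). M15562_at of RT1-Da read 2812.8, 3347.9 and 3649.6 in SHR and 4221.2, 5405.7 and 3253.1 in WKY, with overlap, at -0.35 ± 0.21 (0.493).

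The accessory RT1-DM genes had no call. U31598_s_at of RT1-DMa read 3031.8, 2228.6 and 2924.9 in SHR and 3872.3, 3054.3 and 2761.3 in WKY, at -0.23 ± 0.19 (limma adjusted p = 0.653). The dimmer Z49761_at, not tested, was at 319.9 to 456.5 in SHR and 504.7 to 682.8 in WKY with no overlap. For RT1-DMb, rc_AI171966_at read 592.9, 1076.7 and 267.6 in SHR and 1400.3, 2131.9 and 720.9 in WKY. These overlapped, and the wide spread gave -0.97 ± 0.45 (0.395). U31599_at and U31599_g_at of RT1-DMb lay below the filter and their strains overlapped, at 117.1 to 222.7 and at 105.1 to 932.5. A p that misses the threshold does not show that the strains had equal levels.

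**Figure D2:**
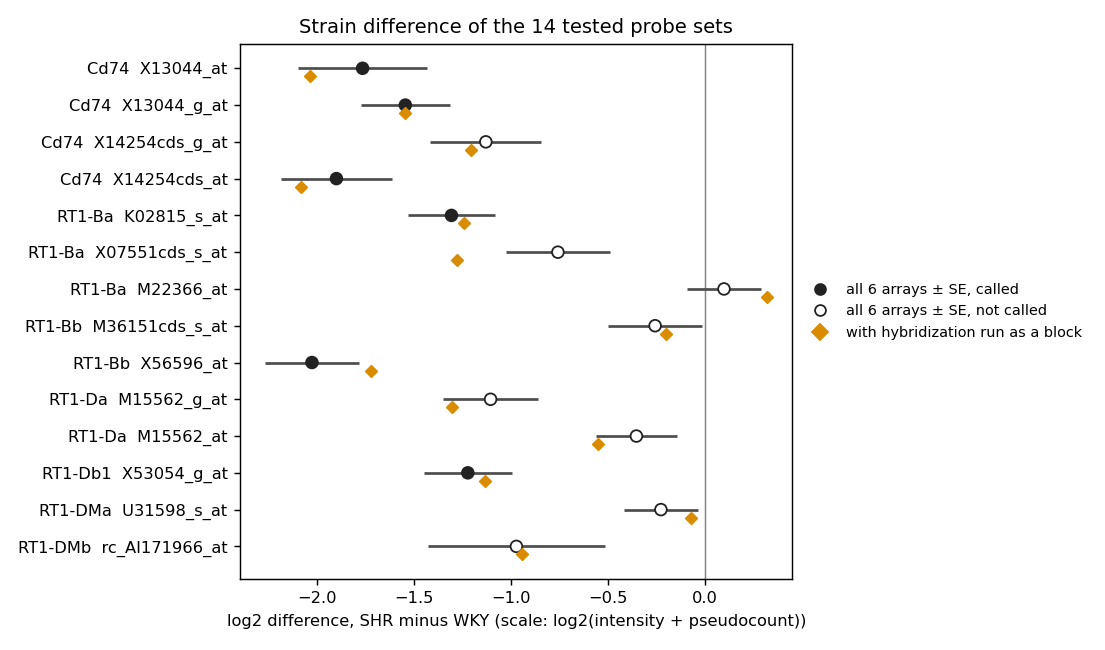
Log2 difference between strains (SHR minus WKY) of the 14 tested probe sets, with circles and bars for the fit on all 6 arrays ± SE (filled where limma called the probe set) and diamonds for the fit with the hybridization run as a block. Of the 14, 13 lie left of 0, from -2.03 (RT1-Bb, X56596_at) to -0.23 (RT1-DMa), and the same 13 do so with the run as a block.

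The number of member calls changed with the model and with the arrays in the fit. With the hybridization run as a block, and in the first run alone, 0 of the tested members were called, while 20 and 1 probe sets of the whole array were. At an unadjusted p under 0.05 there were 9 of 14 and 10 of 16 members, against 9.19% and 8.45% of all probe sets tested in those fits. In both fits the strain difference comes from 1 SHR array, since the second run held no WKY array. With the block the differences were -2.04 for Cd74 X13044_at (limma adjusted p = 0.232), -1.72 for RT1-Bb X56596_at (0.135), -1.24 for RT1-Ba K02815_s_at (0.287) and -1.14 for RT1-Db1 (0.343), while RT1-Ba X07551cds_s_at moved to -1.28 (0.222). X56596_at passed in all 6 fits without 1 array. Cd74 X13044_g_at passed in the 3 fits without a WKY array and lost its call without any SHR array. K02815_s_at passed without WKY replicate 1 or 2, and X13044_at and X14254cds_at only without WKY replicate 3. RT1-Db1 X53054_g_at passed in 0 of the 6. The other RT1-Db1 probe set, X53054_at, rose above the filter when an SHR array was left out. It was called without SHR replicate 3 (-2.51, limma adjusted p = 0.0280) and not without SHR replicate 1 or 2.

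Class II readings were high in WKY replicate 2. It was the highest WKY array in 13 of the 14 tested member probe sets and in 32.4% of all tested probe sets, and its excess over the mean of WKY replicates 1 and 3 had a median log2 value of 0.74 over the 14 and 0.009 over all. Without it the members called fell to 3 (RT1-Bb X56596_at, RT1-Ba K02815_s_at and Cd74 X13044_g_at), at -1.87, -1.06 and -1.28. Summed over the brightest probe set of each of the 7 genes, intensity was 18815 to 19801 in SHR, 32518 to 33572 in WKY replicates 3 and 1, and 57273 in WKY replicate 2. The strains therefore stood apart with and without that array.

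Some leukocyte markers were also highest in WKY replicate 2. The 15 measured T and NK cell markers summed to 16970 there, against 10130 and 11691 in the other WKY arrays and 9315 to 11193 in SHR. Of the 7 tested, 4 had WKY replicate 2 as their highest WKY array, as did 32.4% of all tested probe sets. Among the 4 was Lck, at 5442.5 against 2727.8 to 4355.1. Cd8b (907.8) and Gzmb (935.7) read lower in WKY replicate 2 than in WKY replicate 1 (935.7 and 1014.8). Cd3d, a T cell receptor chain, read 745.2 in WKY replicate 2 and 60.4 to 215.3 elsewhere, and Cd8a 752.9 against 117.5 to 212.9. Both lay below the filter and were chosen after their values were seen. The 3 pan-leukocyte markers summed to 3779 against 548.5 to 1759, a sum carried by the untested Coro1a, a leukocyte actin-binding protein, at 2432.7 against 68.6 to 182.1. Ptprc, the leukocyte phosphatase CD45, was higher in WKY replicate 1 (1433.6) than in WKY replicate 2 (1272.7), and Spn in WKY replicate 2 (73.3) lay below the other WKY arrays. The 2 B cell markers summed to 2564 against 829 to 1746. Cd37, a leukocyte tetraspanin rich in B cells, read 1413.5 in WKY replicate 2 and 317.6 to 695.5 elsewhere. Cd79b, a chain of the B cell receptor, read 1150.5 there, within the SHR range of 966.9 to 1241. No listed marker was at 0 on every array. The part of these cells in the class II readings was not tested.

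Between strains, 1 leukocyte marker passed. Of 8 tested macrophage and dendritic cell markers (15 measured), 1 was lower in SHR and 7 did not pass, with a median of -0.12. A negative difference was seen in 7 of the 8, and in 1622 of all 3144 tested genes. At an unadjusted p under 0.05 there were 2 of the 8, against 13% of all tested genes. The called gene was Lgals3, galectin-3, which macrophages and other cells make, at 1490.3 ± 177 in SHR and 3383 ± 8.41 in WKY (intensity ± SD, n = 3) and -1.10 ± 0.16 (limma adjusted p = 0.0140, and 0.199 with the run as a block). C1qb, a complement chain made by macrophages, was at -1.02 ± 0.28 (0.137) and the chemokine Ccl2 at 0.46 ± 0.29 (0.528). The list summed to 18938 to 21974 in SHR and 21325 to 27520 in WKY, which overlap. None of 7 tested T and NK cell markers (median -0.43, 4 of 7 negative), of 2 B cell markers (Cd37 at -0.84, Cd79b at 0.98) and of 1 pan-leukocyte marker (Ptprc at 0.05) passed. Of these 10, 1 had an unadjusted p under 0.05, as did 13% of all tested genes. The T and NK cell genes of smallest p were Lck at -0.48, Cd5 at -0.68 and Cd3g at -0.45, while Cd8b was at 0.53 and Ctla4 and Gzmb at 0.11. Without WKY replicate 2 the median of the 7 was 0.0392, and without SHR replicate 3 it was -0.0160. By gene, 0.763% of the 3144 genes tested were called lower in SHR, with a median of -0.01 over all. By the same rule of the brightest probe set, 3 of the 7 class II members were called lower. When all tested probe sets of a gene were averaged, RT1-Bb was called too, at -1.14 (adjusted p = 0.0293). The difference between the lists was not tested.

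**Figure D3:**
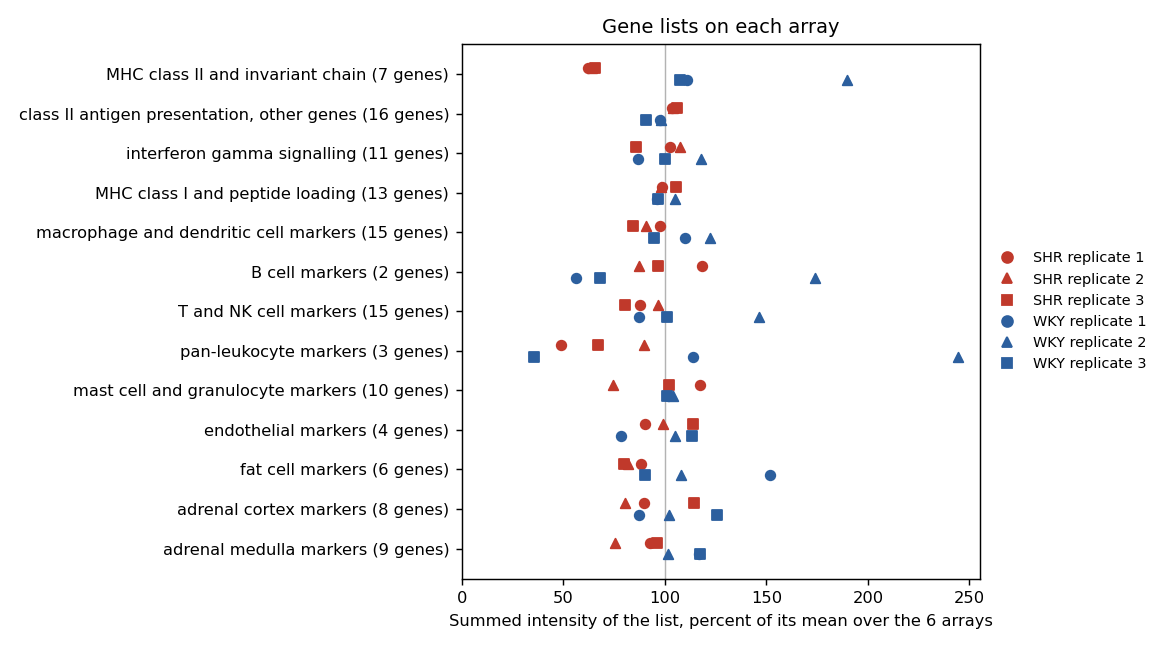
Summed intensity of each gene list on each array, as a percent of the list's mean over the 6 arrays, with red for SHR, blue for WKY and a marker shape per replicate. The class II members, fat and medulla lists have SHR wholly below WKY. The other class II pathway genes have SHR wholly above in their sum, in which Ctsd and Ctsb are the brightest genes. WKY replicate 2 is the highest array for the class II, T and NK cell, B cell, pan-leukocyte, macrophage and interferon gamma lists.

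Other genes of the class II pathway gave no call. Of 23 listed, 16 were measured and 13 tested, with 0 higher, 0 lower and a median of -0.09, while 4 had an unadjusted p under 0.05, as did 13% of all tested genes. Ctsh, a cathepsin of the endosome, read 4250.2, 4898.3 and 3980.3 in SHR and 7775.2, 6607.7 and 6382.6 in WKY, at -0.64 ± 0.15 (limma adjusted p = 0.0887). Ctss, the cathepsin that trims the invariant chain, read 2894.2, 2408.3 and 2818.5 against 3957.4, 4304.1 and 3706.8, at -0.53 ± 0.15 (0.147). Both had SHR wholly below WKY. Ctsd, a lysosomal aspartic protease, had SHR wholly above WKY, at 21803 to 23519.3 against 13652.5 to 16474.9 and 0.56 ± 0.12 (0.0590). With the mean of its probe sets it was called, at 0.50 (0.0396). Ctsb, another cathepsin, also had SHR wholly above WKY, at 18710.8 to 21528.6 against 15199.2 to 17977.7 and 0.30 ± 0.12 (0.319). Ctsd and Ctsb were the brightest genes of the list and weigh most in its sum. Of the 13 tested genes, 8 had a negative difference, as did 1622 of all 3144 tested genes. Of the X and Y box factors, Rfx5 was at -0.22 (0.758), Nfya at -0.23 (0.756), Nfyb at -0.27 (0.619) and Nfyc at -0.02 (0.973). RT1-DOa, whose product restrains RT1-DM, was at 0.24 (0.614).

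Interferon gamma induces class II genes in many cells through the coactivator CIITA. Of 8 tested genes of that pathway (11 measured of 14 listed) 0 passed, 2 had an unadjusted p under 0.05 (13% of all tested genes did) and the median was 0.23. Irf1, a transcription factor of the response, read 1829.9, 1262.8 and 1105.3 in SHR and 2983.9, 2974.1 and 2618.2 in WKY, with no overlap, at -0.97 ± 0.21 (limma adjusted p = 0.0659). It was called without SHR replicate 1 (-1.15, 0.0496), and with the run as a block it stood at -0.59 (0.517). Irf8, a factor of myeloid and B cells, was at 0.66 ± 0.28 (0.349), and the receptor chain Ifngr1 at -0.68 ± 0.38 (0.472).

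MHC class I and peptide loading genes gave no call among the 11 tested (13 measured of 25 listed). At an unadjusted p under 0.05 there were 2, against 13% of all tested genes, and the median was -0.21. RT1-A3, just under the filter, was called higher in SHR with a common median (2.06, limma adjusted p = 0.0169), 4 times the pseudocount (1.14, 0.0129), no filter (2.04, 0.0326) and without WKY replicate 2 (2.26, 0.0224). Tap1, which carries peptides into the endoplasmic reticulum, read 3681.6, 3956.8 and 3673.6 in SHR and 5115, 6225.8 and 4767.3 in WKY, with no overlap, at -0.48 ± 0.15 (limma adjusted p = 0.190). B2m, the class I light chain, was at -0.40 ± 0.16 (0.310) and Psmb9, an immunoproteasome subunit, at -0.30 ± 0.15 (0.414).

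Along the chromosome, the RT1-D and RT1-B genes neighbour each other, and the peptide transporter and immunoproteasome genes lie between them and the RT1-DM genes. From RT1-Da to RT1-DOa 12 genes were measured and 11 tested, by their brightest probe set, and 2 were called lower, RT1-Db1 and RT1-Ba. Of the 5 tested there that are not members, Tap2, Psmb8, Tap1, Psmb9 and RT1-DOa, 0 were called and 1, Tap1, had an unadjusted p under 0.05. Over all tested genes, 0.763% were called lower and 13% had an unadjusted p under 0.05. A little beyond lies the class I gene RT1-A3, which had the reverse order (chosen after its values were seen). It read 1373, 1401.9 and 1032 in SHR and 79.4, 299.2 and 163.4 in WKY. Its mean log2 value missed the filter by 0.00033, so it was not tested here. It was called higher in SHR in the 4 alternatives named with the class I genes above. Class I genes are close copies of one another, and which of them this probe set reads is uncertain. Cd74 lies on another chromosome.

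**Figure D4:**
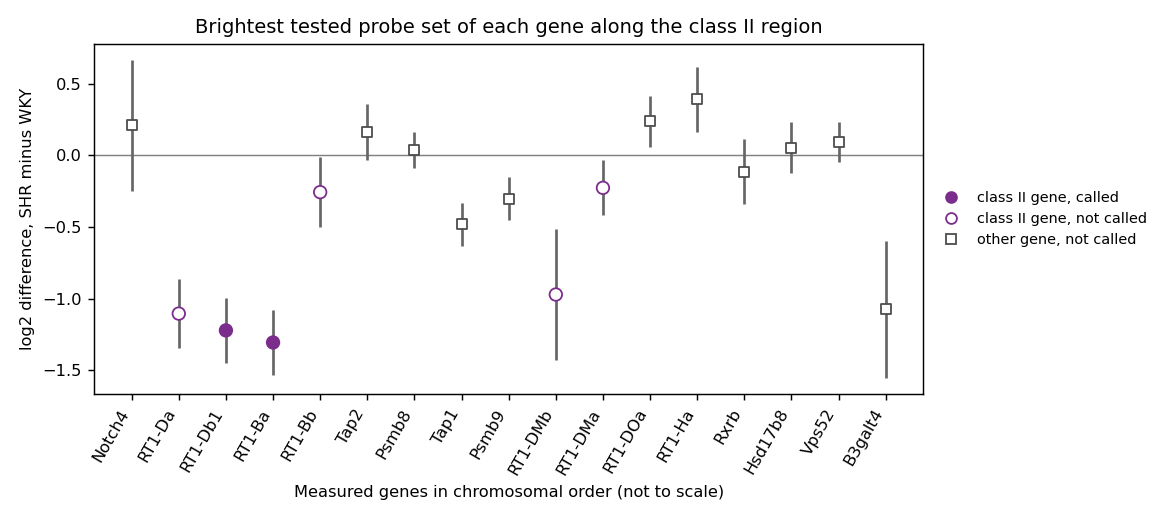
Log2 difference between strains (SHR minus WKY, ± SE) of the brightest tested probe set of each measured gene, in chromosomal order along the class II region of the GRCr8 assembly, not to scale, with circles for class II members and squares for other genes. RT1-Da, RT1-Db1 and RT1-Ba lie between -1.10 and -1.31, RT1-Bb at -0.26, and Tap2 and Psmb8 at 0.16 and 0.04.

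The genes whose pattern over the 6 arrays was most like that of the brightest Cd74 probe set were ranked by the root mean square difference of log2 deviations from each probe set's own mean. It was 0.18 for Klkb1, the plasma prekallikrein gene, 0.32 for Cd36, a fatty acid transporter, and 0.32 for S100a10, an annexin partner. RT1-Da (0.37), RT1-Db1 (0.37) and RT1-Ba (0.39) followed, and the median over the other 3143 genes was 1.01. RT1-DMb ranked 100, RT1-Bb, by its brightest probe set, 359 and RT1-DMa 591. Klkb1 read 191.6, 227.4 and 294.9 in SHR and 1128.2, 1813.5 and 991.7 in WKY, with WKY replicate 2 again the highest array. Taken as deviations from each strain's own mean, Ache (0.10), Cyp2b15 (0.15) and Cep95 (0.15) came first. RT1-Da (0.16) stood at rank 4, before Adora1 (0.17) and Glmn (0.18). Apart from RT1-Da, none of these is a class II gene, and none was called. RT1-Db1 stood at rank 39, RT1-Ba at 115, RT1-Bb at 536, RT1-DMa at 1221 and RT1-DMb at 2507. RT1-DMb (0.61) was less like Cd74 there than the median gene (0.49).

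Markers of other cell types were set beside these values. The sum of the fat cell markers narrowly did not overlap between strains, at 36197 to 39972 in SHR and 40722 to 68510 in WKY. There WKY replicate 1 and not WKY replicate 2 was highest. Taken singly, Cfd had SHR wholly below WKY, while Lep, Plin1, Fabp4, Lpl and Lipe each overlapped. Of the 5 tested, 1 was called lower, Cfd, the protease adipsin, at 1613 ± 376 in SHR and 7471 ± 3580 in WKY (intensity ± SD, n = 3) (limma adjusted p = 0.0324, and 0.319 with the run as a block), and Fabp4 was at -1.52 (0.235). Lipe was at -0.41, Lpl at 0.38 and Lep at 0.00425. Endothelial markers (0 of 3 called, median -0.01) and mast cell and granulocyte markers (0 of 3, median -0.27) overlapped between strains in their sums. So did the cortex markers (0 of 8 called, median -0.09). The medulla markers summed to 42065 to 53446 in SHR and 56556 to 65270 in WKY, with 1 of 9 called lower, Dbh, which makes noradrenaline, at -1.29 ± 0.15 (0.00548, and 0.126 with the run as a block). Of the 9 tested medulla markers 8 were negative, as were 1622 of all 3144 tested genes, and their median was -0.53. At an unadjusted limma p under 0.05 there were 5, against 13% of all tested genes. The part of any of these cell types in the class II readings was not tested.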

How the data were processed

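The authors deposited 1 linear intensity per probe set and array. How probes were combined and scaled is not given in the sources used here. Per the file headers, the deposited settings files (other values) gave chip lot, station, fluidics module and hybridization time, from which 2 runs over 60 minutes apart were set. Gene names came from the platform annotation, updated through RefSeq (GRCr8). After 59 controls were left out, the fit used log2(intensity + 181.5), where 181.5 is the 20th percentile of positive values, and probe sets with a mean above the 40th percentile were tested (5244 of 8740). Strains were compared with limma 3.58.1 (lmFit, eBayes with an intensity trend, two-sided) in R 4.3.3 over all 6 arrays, with Benjamini-Hochberg adjustment over all tested probe sets and a threshold of 0.05. Pairs of probe sets of a gene were fitted alike on their per-array difference. A gene was represented by its brightest tested probe set. The steps were tested on simulated data. Genes were named by a fixed rule: every member, and up to 3 genes of smallest p, or all that passed, from each list, and the 6 most like Cd74; cortex, medulla, fat, endothelial and mast cell lists are given in brief. The X and Y box factors, RT1-DOa, Tap2, Psmb8 and Ctsb were named for their role, place or brightness, after their values were seen. The members and lists were chosen with earlier results of these data known. The lists are class II and other class II pathway genes, interferon gamma, class I, and markers of macrophages, B, T and NK cells, leukocytes, mast cells and granulocytes, endothelium, fat, cortex and medulla. The number of arrays limits the precision.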

Additional observations from a re-analysis of the deposited data

How the results depend on the processing

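The limits were 3 arrays a strain, 1 SHR array in the run that held both strains, and 7 of 21 member probe sets too dim to test. Calls over all probe sets, 102 in the main setting, were 60 by eBayes without a trend, 46 with the fluidics module as a block, 20 with the run blocked, 1 when the first run stood alone, and 36 to 59 without 1 array. Member calls, 6 in the main setting, were 3, 2, 0, 0 and, without 1 array, 1 to 4. Called pairs of probe sets, 14 in the main setting, were 8, 4, 4, 5 and 6 to 9, and 6 with a pseudocount of 1. The fits without an array, with a block or of the first run alone have fewer residual degrees of freedom. The cause of the changed counts was not tested. Deviations of same-numbered arrays from their strain means correlated at 0.000882, 0.0105 and 0.0712 over 5244 probe sets. Differently numbered arrays gave -0.0535 to 0.0479. These values cannot tell if the replicate number marks a pairing, and the labels do not say. The main fit used no pairing. With the replicate number as a block 53 probe sets, 3 of them members (X13044_g_at, X14254cds_at and X56596_at), and 8 pairs were called.

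The 6 called member probe sets had 107 values under alternatives, of which 57 kept the call and 50 lost it. Among the 8 uncalled ones, 0 values gained a call and 2 changed sign. Both were RT1-Ba M22366_at, at -0.0516 with the module as a block and between -0.0137 (without SHR replicate 1) and 0.279 (without SHR replicate 3) when 1 array was left out. Uncalled pairs changed sign for Cd74 X13044_at minus X14254cds_at (-0.29 at 4 times the pseudocount, and -0.0779 without SHR replicate 3 to 0.301 without SHR replicate 2), Cd74 X13044_g_at minus X14254cds_at (-0.10 at 4 times the pseudocount) and RT1-Ba K02815_s_at minus X07551cds_s_at (0.0367 in the blocked fit and likewise when the first run stood alone). The cause was not tested. At 4 times the pseudocount RT1-Db1 X53054_at passed the filter and was called, which made 7 member calls. Over quantile normalization, a common median, a pseudocount of 1 or 4 times as large, no filter or a stricter one, and robust eBayes, members called ran from 4 to 7.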
